A study of Mus musculus with 66 samples.

Results

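The expression of 9 genes of heme synthesis and breakdown was examined in cultured mouse neurons. They encode 7 enzymes of the synthesis pathway (Alas1, Alad, Uros, Urod, Cpox, Ppox and Fech) and both heme oxygenases (Hmox1 and Hmox2). The genes were taken by symbol from 30084 in the table of read counts, and all 9 were among the 16145 that passed the filter on low counts. The set was chosen by pathway with these measured values in view, Chd8 knockdown first because of a strong decrease of Fech there, so differences between Chd8 and nontargeting libraries, and counts of genes past the threshold there, are given below as a description, without p-values. The difference of the Chd8 effect between the sexes was not used in the choice and is tested.

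Neurons came from wildtype (WT) embryos of stage E16.5, and male and female embryos were cultured apart. The cultures received lentivirus with an shRNA (a small hairpin that lowers the matching mRNA) against 1 of 9 regulators, a nontargeting shRNA, or no virus. The targets were Ash1l and Kmt2c (histone methyltransferases), Kdm6b (a histone demethylase), Setd5 (a SET domain protein), Chd8 (a chromatin remodeller), Dnmt3a (a DNA methyltransferase), Mbd5 (a protein of the methyl-CpG-binding domain family), Med13l (a Mediator subunit) and Tbr1 (a transcription factor of cortical neurons). Per the labels, doses were set to leave about 50% of each target, cultures were freed of virus at day 6, and lysis followed at day 10. Each of the 11 conditions had 3 libraries per sex, 66 in all. The labels describe triplicate wells and do not say whether these came from separate litters or cultures, so the p-values measure only the spread between these libraries.

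Total counts per library ranged from 13634872 to 66074822. The target of each shRNA stood at 22.3% to 54.3% of the nontargeting mean of the same sex. The decrease of the target itself did not pass for Kdm6b (edgeR adjusted p = 0.0953 in males and 0.856 in females) or for Setd5 in males (0.402). The summed level of 6 neuron markers was between 5407 and 7969.7 CPM (read counts relative to the size of the library) in every library. Erythroid markers, which include the hemoglobin genes and the red cell enzyme gene Alas2, summed to at most 1.28 CPM, and 6 microglia or macrophage markers to at most 3.56 CPM. The label did not match the target's level in 2 male libraries. Setd5 was at 141 CPM in the library labelled Setd5 male replicate 1, against 42.9 and 42.7 CPM in replicates 2 and 3. Kdm6b was at 39.9 CPM in the library labelled Kdm6b male replicate 1, against 17.2 CPM in both others. The reverse held for the other target: the library labelled Kdm6b male replicate 1 had 44.9 CPM of Setd5, where nontargeting males had 133 to 149, and the library labelled Setd5 male replicate 1 had 23.1 CPM of Kdm6b, where they had 55.1 to 64.9. The library labelled Setd5 male replicate 1 thus had target levels near those of the other label. In the one labelled Kdm6b male replicate 1 this held for Setd5 only in full. Its Kdm6b level lay below every nontargeting male and below the 47.2 and 62.6 CPM of Setd5 male replicates 2 and 3. Whether these libraries were exchanged was not tested, the labels were kept, and male Setd5 and Kdm6b values depend on them. The library labelled Setd5 shRNA female replicate 1 also stood apart, with 612 counts of the Y-linked gene Ddx3y, against at most 12 in the 32 other female libraries and at least 1690 in males. Kdm5d, also Y-linked, had 574 counts there, against at most 2 and at least 696. Of the Y-linked genes Uty and Eif2s3y it had 0 and 24 counts, where males had at least 515 and 1261.

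Heme is an iron-containing porphyrin that serves in cytochromes, globins and many enzymes. Its synthesis starts in the mitochondrion, where ALAS1 joins glycine and succinyl-CoA in the rate-limiting step of non-erythroid cells. The middle steps run in the cytosol, and the last steps return to the mitochondrion, where ferrochelatase, the product of Fech, inserts iron. Heme oxygenases open the ring and release biliverdin, carbon monoxide and iron. Hmox1 is known as the stress-inducible form, and Hmox2 as the constitutive form that is abundant in brain.

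Promoter sequence is shown for Urod and Cpox, the members called in at least 1 comparison whose table entry has a single start and no annotated exon in the window. Each run is the 250 bases before the RefSeq start, 5′ to 3′ on the strand of the gene, in GRCm38 coordinates. Capitals mark matches to the motifs searched.

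Urod, chr4:116994414-116994663, minus strand: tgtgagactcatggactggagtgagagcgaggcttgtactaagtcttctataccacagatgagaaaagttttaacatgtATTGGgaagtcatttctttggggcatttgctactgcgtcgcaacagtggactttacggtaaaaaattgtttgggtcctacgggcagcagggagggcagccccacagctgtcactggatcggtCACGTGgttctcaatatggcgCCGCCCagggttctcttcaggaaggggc

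Cpox, chr16:58669958-58670207, plus strand: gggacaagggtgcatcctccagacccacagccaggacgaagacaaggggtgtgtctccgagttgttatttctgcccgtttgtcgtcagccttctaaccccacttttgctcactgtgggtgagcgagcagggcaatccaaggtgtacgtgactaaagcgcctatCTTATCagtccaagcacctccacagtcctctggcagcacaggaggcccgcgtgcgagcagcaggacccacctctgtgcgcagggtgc

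The Urod window held an E-box (CACGTG), and on the opposite strand a CCAAT box and a GC box (GGGCGG). Over 32851 RefSeq promoters, 33.8% of windows of this length held CCAAT, 6.02% held CACGTG and 32.7% held GGGCGG on either strand. The Cpox window held the GATA motif GATAAG on the opposite strand, a match present in 6.55% of windows. The motifs of NRF1, ETS factors (CCGGAAG) and YY1 (AAGATGGCG), the cAMP response element (TGACGTCA) and the antioxidant response element (TGACNNNGC) matched neither window. The promoter table held 7 of the 9 genes. These matches describe letters in the windows and do not show that a factor binds there.

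Levels of different genes were compared only per kilobase of exon. In nontargeting neurons Hmox2 was the most abundant of the 9, at 20.99 ± 1.62 CPM per kilobase in males and 23.2 ± 2.36 in females (SD, n = 3 each). Uros followed, at 9.37 ± 1.11 and 11.2 ± 2.07 CPM per kilobase. The first enzyme gene, Alas1, stood at 4.36 ± 0.160 and 4.43 ± 0.529. Fech, at 2.55 ± 0.169 and 2.64 ± 0.180, and Ppox, at 2.65 ± 0.309 and 2.65 ± 0.706, were the lowest. The length used counts every annotated exon base of a gene, 13.8 kb for Fech and 2.22 kb for Hmox2. The order depends on these lengths, which need not be those of the transcripts present. Hmox2 and Ppox also share exon bases with genes on the opposite strand, as given below. Infection with the nontargeting virus moved none of the 9 genes past the threshold in either sex by edgeR (adjusted p under 0.05), with 0 of them at an unadjusted p under 0.05 and 0 called by DESeq2. These comparisons called 0% of all genes tested in males and 0% in females. The log2 differences of the 9 genes from no virus lay between −0.16 and 0.15. Males and females with the nontargeting shRNA did not differ past the threshold in any of the 9 by edgeR. No member had an unadjusted p under 0.05, and the comparison called 0.0434% of all genes.

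**Figure D1:**
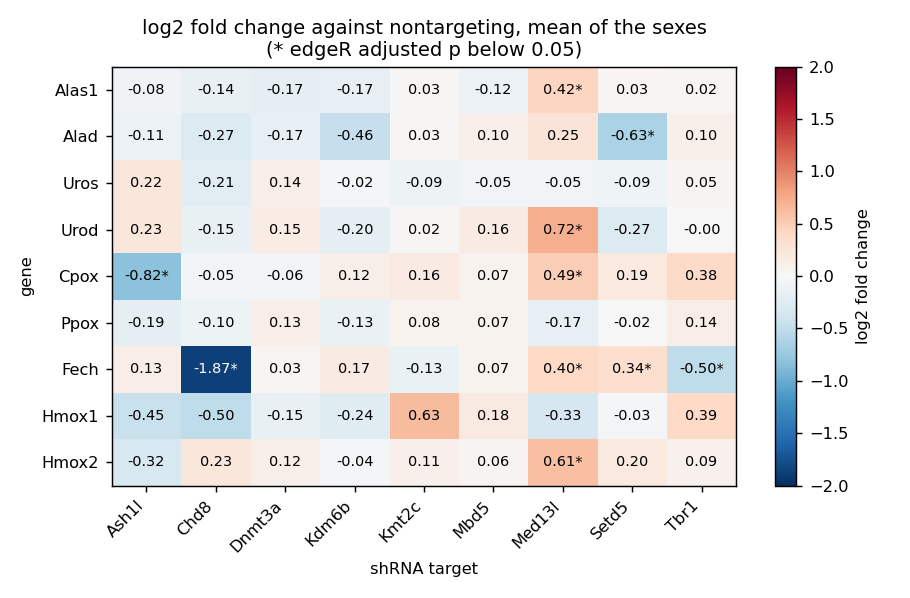
Log2 fold change of each heme gene (rows) against the nontargeting shRNA for each shRNA target (columns), as the mean of the male and the female effect. Color gives the size from −2 to 2 and a star marks edgeR adjusted p below 0.05. In the Chd8 column, which was used in choosing the genes, a star is a description only. Fech after Chd8 shRNA is the lowest value (−1.87), and Med13l shRNA is the column with the most starred genes, 5 of 9.

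The knockdowns differed in how many of the 9 genes they moved. Averaged over the sexes, Med13l shRNA raised 5 of 9 (Alas1, Urod, Cpox, Fech and Hmox2) and lowered none by edgeR (adjusted p under 0.05, no replicate block), where 11.8% of all genes tested were called higher and 24.1% were called in either direction. Setd5 shRNA moved 2 (Alad lower, Fech higher, against 5.3% of all genes called). Ash1l shRNA lowered Cpox alone (6.16% called), and Tbr1 shRNA lowered Fech alone (1.33% called). The median log2 fold change of the 9 genes was 0.40 after Med13l shRNA, against −0.01 over all genes tested. With the other targets, Chd8 aside, the median of the 9 lay between −0.13 and 0.09. Without the replicate block, no member was called in the mean of the sexes after Dnmt3a, Kdm6b, Kmt2c or Mbd5 shRNA by edgeR or DESeq2. The numbers at an unadjusted p under 0.05 were 0, 1, 1 and 0. These comparisons called 1.4%, 0.966%, 0.694% and 0.663% of all genes. Within a sex edgeR without the block and DESeq2 called no member with these 4 shRNAs either. An unadjusted p under 0.05 was found for 1 member in Kdm6b males and 1 in Kmt2c females. Calls with the block are given below. There the shares of all genes called in males and females were 0.111% and 0.118% with Dnmt3a, 0.0867% and 0% with Kdm6b, 0.0867% and 0.0991% with Kmt2c, and 0.0619% and 0.0557% with Mbd5. All of them share the same nontargeting libraries. A lower level can come from fewer cells of a type or from less RNA per cell, which cannot be told apart in bulk RNA.

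Fech, whose product makes heme from protoporphyrin and iron, was lowest with Chd8 shRNA. In nontargeting males its level was 33.3, 34.7 and 37.9 CPM, and in males with Chd8 shRNA it was 8.18, 9.76 and 11.1 CPM. Nontargeting females had 34.3, 39.2 and 36.1 CPM, and females with Chd8 shRNA had 7.97, 11.4 and 10.3 CPM. The groups did not overlap in either sex, and the highest Chd8 library was far below the lowest of any other condition, 21.6 CPM with Tbr1 shRNA. The level was 27.4% of the nontargeting mean in males and 27.1% in females. Male log2 fold change was −1.87 (SE 0.13), and the female value was −1.88 (SE 0.13). Leaving out single libraries gave values from −1.97 to −1.76 (males) and from −1.999 to −1.74 in females. The male effect minus the female effect, which the choice of genes did not use, was 0.02 (95% interval −0.35 to 0.38, edgeR adjusted p = 1).

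The other 8 genes showed no such decrease with Chd8 shRNA. Fech was the 1 of 9 past the threshold in each sex and in the mean of the sexes, where 9.82%, 9.33% and 22.3% of all genes were called, and nothing is read from this count. On the log2 scale Hmox1 differed by −0.64 (SE 0.28) for males and −0.36 (SE 0.28) for females, and Hmox2 was higher by 0.27 (SE 0.14) and 0.19 (SE 0.14). The replicate number was also used as a block, a pairing of libraries inferred from these same data. The count past the threshold was then 2 in males (Fech and Hmox1, with 22.1% of all genes called). It was 4 in the mean of the sexes (Uros and Hmox1 lower as well, Hmox2 higher, with 36.9% called). Alas1, which starts the pathway, differed by −0.19 (SE 0.15) and −0.09 (SE 0.15). Markers of several cell types moved with Chd8 shRNA. For the mean of the sexes 2 of 4 fibroblast markers (Dcn and Lum), 2 of 4 GABAergic markers (Gad2 and Slc32a1), 1 of 5 astrocyte markers (Gfap), 1 of 4 excitatory markers (Slc17a7) and 2 of 6 neuron markers (Map2 and Syt1) were lower, and Stmn2 and Tubb3 were the 2 neuron markers that were higher. The summed fibroblast level was 10.4 to 11.3 CPM in males and 6.83 to 14.96 CPM in females, against 16.1 to 34.3 and 16.7 to 49.0 CPM with the nontargeting shRNA, with no overlap. The summed GABAergic level was 992 to 1245.0 CPM and 906 to 1175.0 CPM, against 1263.7 to 1556 and 1011 to 1447 CPM. The part of these cells in the Fech value was not tested.

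The neighbours of Fech on chromosome 18 (64452914 to 64490251, minus strand, GRCm38) were looked at after the values were seen. Nars, a tRNA synthetase gene 9.4 kb away on the same strand, differed by −0.16 (SE 0.24, males) and 0.00 (SE 0.24, females) with Chd8 shRNA. Onecut2, a transcription factor gene 51.9 kb away on the other strand, differed by −0.31 (SE 0.37) and 0.01 (SE 0.38). Neither passed the threshold in the Chd8 comparison.

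**Figure D2:**
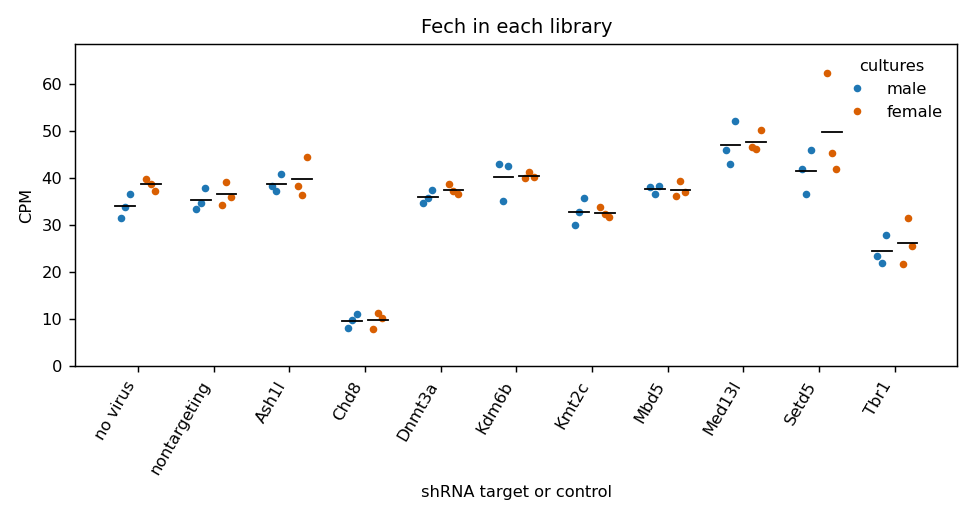
Fech level (CPM, linear axis from 0) in each of the 66 libraries by shRNA target or control, with male cultures in blue, female cultures in orange, and a bar at the mean of each group of 3. The 6 Chd8 libraries lie between 7.97 and 11.4 CPM, the Tbr1 libraries between 21.6 and 31.4 CPM, and the Med13l libraries between 43.1 and 52.2 CPM.

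Fech was also lower with Tbr1 shRNA. Males had 23.4, 22.05 and 27.9 CPM, and females had 21.6, 31.4 and 25.6 CPM, so that all 6 libraries were below every nontargeting library of their sex. In the mean of the sexes Fech fell by 0.50 on the log2 scale (SE 0.09, edgeR adjusted p = 4.5e-04). The male value of −0.53 (SE 0.13, edgeR adjusted p = 0.051) did not pass alone, nor did the female value of −0.48 (SE 0.13, adjusted p = 0.187), where 0.217% and 0.0619% of all genes were called. The replicate numbers pair these libraries, and with the block both passed (edgeR adjusted p = 0.00309 in males and 0.0169 in females, with 1.75% and 0.898% of all genes called). The blocked mean of the sexes called 3 members, Fech lower and Cpox and Hmox1 higher, with 6.57% of all genes called.

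With Med13l shRNA Fech was higher. Males had 46.0, 43.1 and 52.2 CPM, and females had 46.7, 46.3 and 50.1 CPM, above all nontargeting libraries. On the log2 scale the rise was 0.41 for males (SE 0.13, edgeR adjusted p = 0.030) and 0.38 for females (SE 0.13, edgeR adjusted p = 0.0404). In the mean of the sexes the rise was 0.40 (SE 0.09, edgeR adjusted p = 6.2e-04), and it passed in all 12 fits that left out 1 library each. The male minus female difference of the effect was 0.03 (95% interval −0.33 to 0.39). The calls within a sex were less stable. The male call was lost without Med13l replicate 1 or 3 or nontargeting replicate 1 or 2 (edgeR adjusted p = 0.0562 to 0.192), and the female call without Med13l replicate 1 or 3 or any 1 nontargeting library (0.0565 to 0.124).

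Females with Setd5 shRNA had 62.3, 45.3 and 42.0 CPM of Fech, of which the first is the library with Y-linked counts. Fech rose there by 0.45 (SE 0.13, edgeR adjusted p = 0.0339). Without that library the value was 0.25 (edgeR adjusted p = 0.605), and the call was also lost without nontargeting female replicate 1 or 3. In the mean of the sexes Fech rose by 0.34 (SE 0.09, edgeR adjusted p = 0.0134), a call lost without Setd5 female replicate 1 (0.137) or the library labelled Setd5 male replicate 3 (0.0669). The male libraries labelled Setd5 had 41.9, 36.6 and 46.1 CPM and overlapped the nontargeting range, and their log2 fold change of 0.23 (SE 0.13, edgeR adjusted p = 1) did not pass.

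Ordered over both sexes (n = 6 each), mean Fech was 9.79 ± 1.46 CPM with Chd8 shRNA, 25.3 ± 3.79 with Tbr1, 32.7 ± 1.93 with Kmt2c and 35.9 ± 2.26 with the nontargeting shRNA. Each of these steps was larger than either SD. From the nontargeting shRNA up through no virus, Dnmt3a, Mbd5, Ash1l, Kdm6b, Setd5 and Med13l (47.4 ± 3.24 CPM), neighbours in the order differed by less than the larger of their SDs. The genes whose group means were most like those of Fech over the 22 groups were Ppp2r5d (Pearson r of log2 CPM 0.97), Tarsl2 (0.96) and Ulk2 (0.96). The Chd8 groups weigh on these values, which were 0.79, 0.72 and 0.76 over the 20 other groups. All points share the libraries and their scaling.

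Alas1, the first and rate-limiting enzyme, was higher with Med13l shRNA. Nontargeting males had 26.6, 26.2 and 28.0 CPM, and males with Med13l shRNA had 33.9, 42.3 and 36.3 CPM. Nontargeting females had 25.0, 31.1 and 25.9 CPM, and females with Med13l shRNA had 32.5, 38.2 and 35.4 CPM. The groups did not overlap in either sex. Alas1 rose by 0.48 (SE 0.15, edgeR adjusted p = 0.0405) in males, and the female difference of 0.37 (SE 0.15, edgeR adjusted p = 0.113) did not pass. With the block, which pairs the female libraries, it passed at 0.37 (SE 0.12, edgeR adjusted p = 0.013). Averaged over the sexes Alas1 rose by 0.42 (SE 0.11, edgeR adjusted p = 0.00262). The male call was lost in 5 of 6 fits without 1 library, all but that without Med13l replicate 1, and the mean of the sexes passed in all 12. In no other of the 18 comparisons was Alas1 called, and its lowest value was −0.22 with Dnmt3a shRNA in females.

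Urod, which removes carboxyl groups from uroporphyrinogen, had the largest rise of the 9 with Med13l shRNA in the mean of the sexes. Males went from 12.6, 13.7 and 11.04 CPM to 23.2, 20.4 and 21.8 CPM, with no overlap. Females went from 20.1, 12.01 and 18.1 CPM to 33.7, 14.8 and 29.5 CPM, so that the groups overlapped, with replicate 2 low in both. Urod rose by 0.81 (SE 0.24, edgeR adjusted p = 0.0253) in males, and the female difference of 0.64 (SE 0.24, edgeR adjusted p = 0.0757) did not pass. With the block, an inferred pairing of the female libraries, Urod passed in females at 0.61 (SE 0.15, edgeR adjusted p = 0.00123). The rise in the mean of the sexes was 0.72 (SE 0.17, edgeR adjusted p = 0.00106). The male call was lost without Med13l replicate 1 or 3 or nontargeting replicate 1 or 3 (edgeR adjusted p = 0.0697 to 0.131).

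The counts per sex after Med13l shRNA depended on the fit more than the mean of the sexes did. Males had 4 of 9 genes higher (Alas1, Urod, Fech and Hmox2, with 3.14% of all genes called higher), and females had 3 (Cpox, Fech and Hmox2, with 4.74% called higher). With the block, females had 5, the same genes as the mean of the sexes, with 27.9% of all genes called. Leaving out nontargeting male replicate 1 left 0 in males, and leaving out Med13l shRNA female replicate 1, or nontargeting female replicate 1 or 3, left only Hmox2 in females. The mean of the sexes kept all 5 genes in each of 12 such fits. Among GABAergic neuron markers, 2 of 4 (Gad1 and Slc32a1) were lower in males and 1 of 4 (Slc32a1) in females. Averaged over both sexes 3 of 4 proliferation markers (Ccnb1, Mki67 and Top2a) were lower and Pcna was higher, Syt1, Aqp4 (astrocyte), Pdgfra (oligodendrocyte lineage) and Col1a2 (fibroblast) were lower, and Neurod6 (excitatory neuron) was higher. The summed GABAergic level was 849 to 1118 CPM against 1263.7 to 1556 CPM in nontargeting males, and 693 to 1300.0 CPM against 1011 to 1447 CPM in females. Whether these cells bear on the heme gene values was not tested.

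Alad, which joins the first porphyrin precursors in pairs, was lower with Setd5 shRNA. Nontargeting females had 16.6, 15.7 and 19.96 CPM, and females with Setd5 shRNA had 4.41, 10.6 and 10.6 CPM, with no overlap and the lowest value in replicate 1. Alad fell by 1.05 on the log2 scale (SE 0.23, edgeR adjusted p = 0.00507) in females, where 3.12% of all genes were called and 2 of the 9 members. Without replicate 1, the library with Y-linked counts, the value was −0.72 (edgeR adjusted p = 0.152) and no member was called. With the block, which pairs these libraries, it was −1.10 (SE 0.20, edgeR adjusted p = 1.4e-04, with 13% of all genes called). Slc32a1, 1 of 4 GABAergic markers, and Ccnb1, 1 of 4 proliferation markers, were also lower in these females, with a summed GABAergic level of 959.8 to 1381.5 CPM. Over both sexes Slc32a1, Ccnb1 and Top2a were lower and Stmn2 was higher. Their part in the Alad value was not tested.

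In male libraries labelled Setd5 the Alad level was 14.7 CPM in replicate 1 and at most 12.2 CPM in replicates 2 and 3, against 15.6, 14.4 and 14.0 CPM with the nontargeting shRNA. Replicate 1 is the library that goes against its label, and leaving it out also left no member called in males. The difference of −0.22 (SE 0.22, edgeR adjusted p = 1) did not pass, and no member was called in these males by edgeR or DESeq2, with 0 at an unadjusted p under 0.05 (0.0557% of all genes called). The male effect minus the female effect was 0.83 (95% interval 0.19 to 1.47, unadjusted p = 0.0117, edgeR adjusted p = 1). In the mean of the sexes Alad fell by 0.63 (SE 0.16, edgeR adjusted p = 0.010), and without both male libraries that go against their labels the value was −0.69 (edgeR adjusted p = 6.4e-04). Without Setd5 female replicate 1 it was −0.47 (edgeR adjusted p = 0.0767). An Alad level of 4.82 CPM, near the 4.41 CPM of Setd5 female replicate 1, was found in the library labelled Kdm6b male replicate 1. Replicates 2 and 3 of that label had 12.9 and 12.6 CPM. That library is the one with 44.9 CPM of Setd5, near the 42.9 and 42.7 CPM of Setd5 male replicates 2 and 3. Its Alad level was below the Alad level of both. Which shRNA it received was not tested.

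Uros, which closes the porphyrin ring, passed the threshold in none of the 18 comparisons by edgeR or DESeq2, and the smallest unadjusted p was 0.085. Its log2 differences lay between −0.24 (Chd8 shRNA in females) and 0.26 (Ash1l shRNA in males). Over both sexes its mean level was lowest with Chd8 shRNA at 31.7 ± 2.93 CPM and highest with Ash1l shRNA at 42.7 ± 7.89 CPM (SD, n = 6 each).

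Cpox, which oxidizes coproporphyrinogen in the mitochondrial intermembrane space, was lower with Ash1l shRNA and higher with Med13l shRNA. Nontargeting males had 32.4, 24.9 and 29.4 CPM, and males with Ash1l shRNA had 17.9, 15.01 and 12.1 CPM. Nontargeting females had 26.4, 35.0 and 26.3 CPM, and females with Ash1l shRNA had 14.8, 23.1 and 16.1 CPM. The groups did not overlap, and female replicate 2 was the highest of its group with either shRNA. Male Cpox fell by 0.94 on the log2 scale (SE 0.18, edgeR adjusted p = 8.0e-04) and female Cpox fell by 0.70 (SE 0.18, edgeR adjusted p = 0.0343), where 1.98% and 1.1% of all genes were called. In the mean of the sexes Cpox fell by 0.82 (SE 0.13, edgeR adjusted p = 8.8e-06).

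The female call of Cpox after Ash1l shRNA was lost without Ash1l replicate 1 or 3, or without nontargeting replicate 2 (edgeR adjusted p = 0.369, 0.249 and 0.251). It was also lost when the model held only those 6 libraries (0.65). The replicate block pairs these libraries and kept it (edgeR adjusted p = 1.4e-04, with 4.43% of all genes called). Markers of GABAergic neurons moved with this result. Gad1 and Slc32a1, 2 of 4 such markers, were lower in each sex, and Gad2 as well in the mean of the sexes, and the summed level of the 4 was 646 to 801 CPM against 1263.7 to 1556 CPM in nontargeting males and 537 to 819.9 CPM against 1011 to 1447 CPM in females. Their part in the Cpox value was not tested. Cldnd1, the gene next to Cpox on chromosome 16 (58670292 to 58717636, plus strand), looked at after the values were seen, differed by −0.07 (SE 0.15) and 0.07 (SE 0.15).

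With Med13l shRNA the Cpox level was 38.5, 43.4 and 34.4 CPM in males and 39.6, 52.2 and 37.3 CPM in females, all above the nontargeting libraries of their sex. Cpox rose by 0.55 (SE 0.18, edgeR adjusted p = 0.0369) in females, and the male difference of 0.42 (SE 0.18, edgeR adjusted p = 0.146) did not pass. The female call was lost without Med13l replicate 1 or 2 or nontargeting replicate 1 or 3 (edgeR adjusted p = 0.0717 to 0.143). The mean of the sexes rose by 0.49 (SE 0.13, edgeR adjusted p = 0.00313). Ppox, which makes protoporphyrin just before Fech acts, passed in none of the 18 comparisons by edgeR or DESeq2, and the smallest unadjusted p was 0.276. Its log2 differences lay between −0.23 and 0.19, the narrowest range of the 9. Ppox shares 791 exon bases with B4galt3 on the opposite strand, and the strand setting of the counting is not given in the sources used here.

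**Figure D3:**
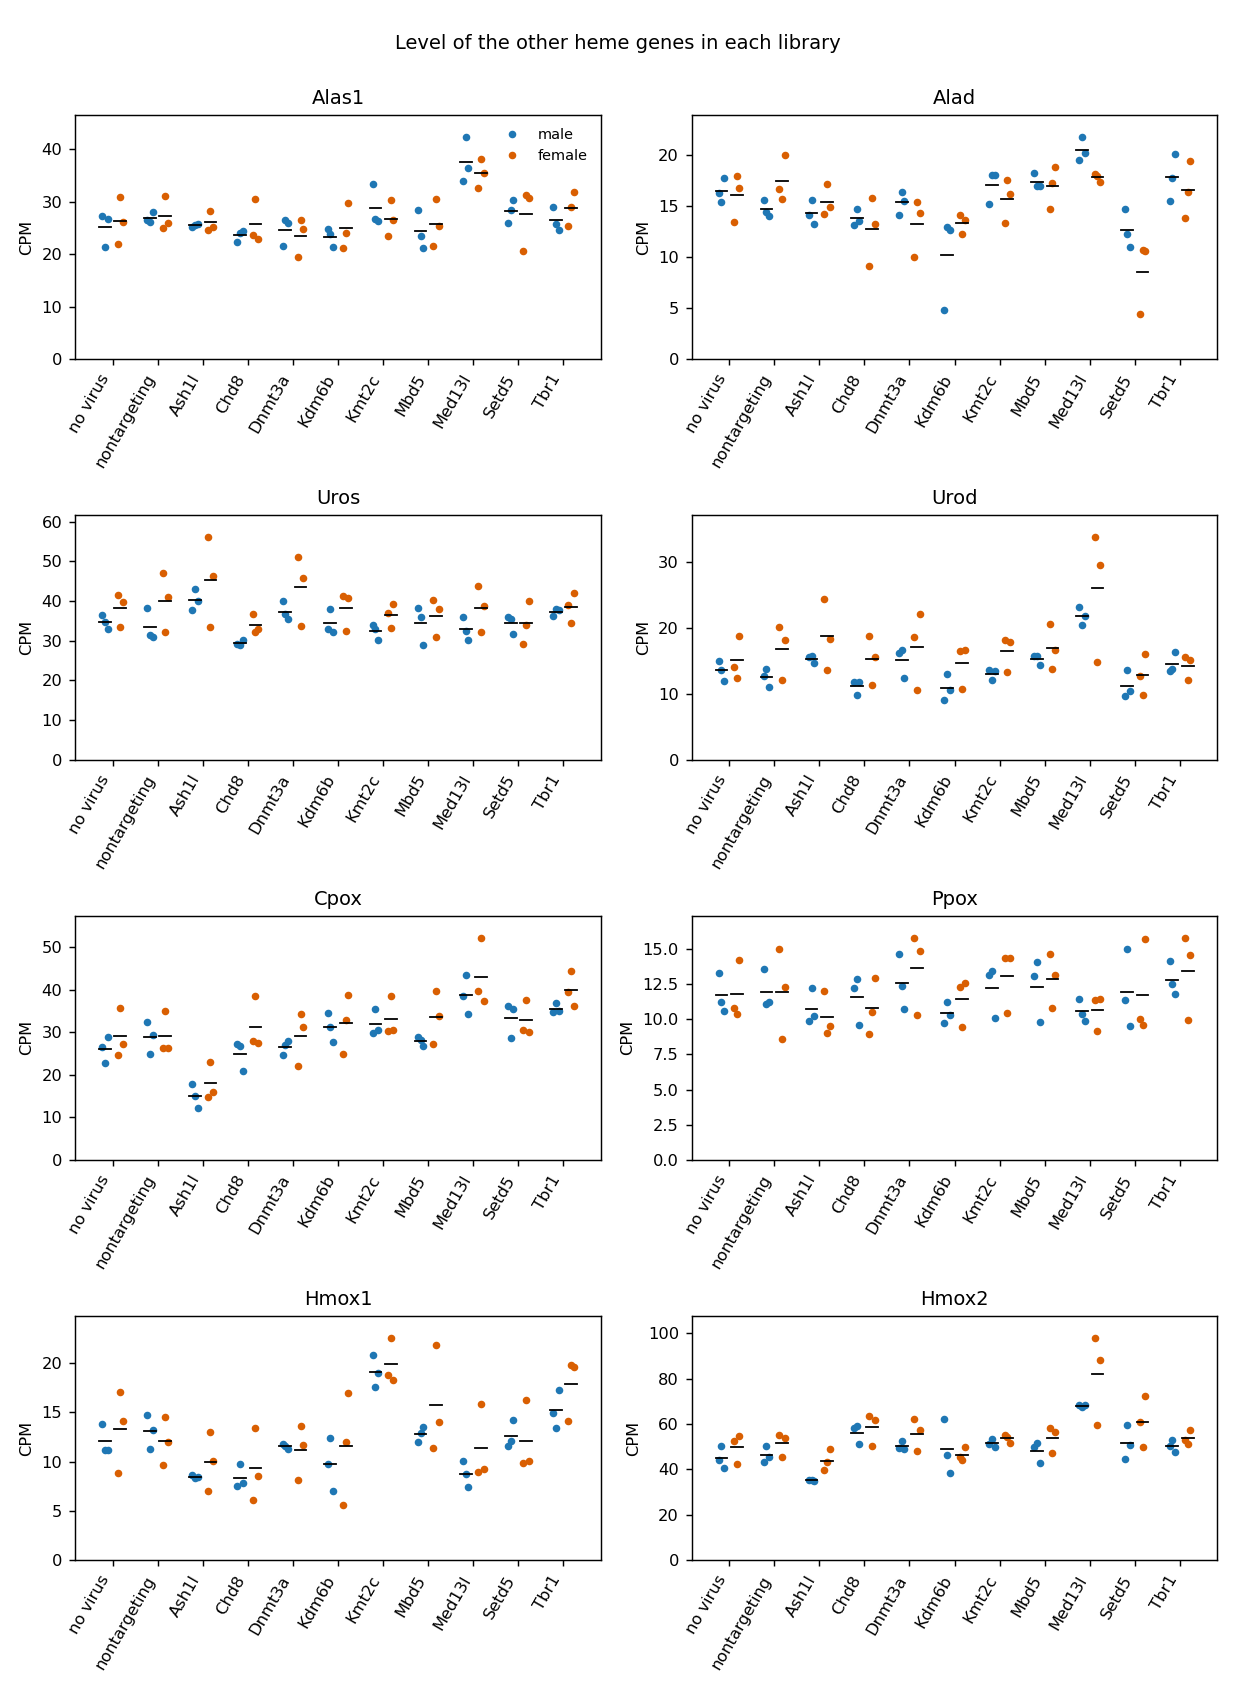
Level (CPM, linear axes from 0) of the other 8 heme genes in each library by shRNA target or control, male in blue, female in orange, with a bar at the mean of each group of 3. Cpox is lowest with Ash1l shRNA (12.1 to 23.1 CPM), Hmox2 and Urod are highest with Med13l shRNA, and Hmox1 is highest on average with Kmt2c shRNA.

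Hmox2, the constitutive heme oxygenase, rose with Med13l shRNA in both sexes. Males went from 43.4, 50.5 and 45.7 CPM to 68.2, 67.4 and 68.4 CPM. Females went from 55.2, 45.4 and 53.7 CPM to 97.8, 59.6 and 88.1 CPM. No library overlapped, and the female rise was uneven, with replicate 2 lowest in both groups. The rise was 0.55 for males (SE 0.14, edgeR adjusted p = 0.00947), 0.67 for females (SE 0.14, edgeR adjusted p = 0.00111) and 0.61 (SE 0.10, edgeR adjusted p = 8.8e-06) in the mean of the sexes. The male call was lost without nontargeting male replicate 1 (0.51, edgeR adjusted p = 0.0553). Hmox2 shares 892 exon bases with Cdip1 on the opposite strand, and Cdip1 differed by −0.10 (SE 0.16) and 0.03 (SE 0.16) in the same comparisons. Males with Ash1l shRNA had 35.5, 35.3 and 34.9 CPM of Hmox2, below all nontargeting males, but the difference of −0.40 (SE 0.14, edgeR adjusted p = 0.173) did not pass.

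Hmox1, the stress-inducible heme oxygenase, was called in none of the 18 comparisons and in no mean of the sexes by edgeR without the replicate block or by DESeq2. With the block it was called in several, of which those where the numbers pair the libraries are given with the Chd8, Tbr1 and Kmt2c values. Its level over both sexes ran from 8.88 ± 2.52 CPM with Chd8 shRNA to 19.5 ± 1.83 CPM with Kmt2c shRNA (SD, n = 6 each), with 12.6 ± 1.98 CPM for the nontargeting shRNA. Between neighbours in this order, only the last step, from Tbr1 to Kmt2c shRNA, was larger than both SDs. Males with Kmt2c shRNA had 20.8, 17.6 and 19.0 CPM, against 14.8, 11.2 and 13.2 CPM with the nontargeting shRNA. Females had 18.8, 22.5 and 18.3 CPM, against 9.68, 14.5 and 11.97 CPM. The groups did not overlap in either sex, yet the log2 differences of 0.55 (SE 0.28, edgeR adjusted p = 1) and 0.72 (SE 0.28, edgeR adjusted p = 0.66) did not pass, nor did their mean of 0.63 (SE 0.20, edgeR adjusted p = 0.157).

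With the block, which pairs the Kmt2c libraries, Hmox1 passed in females (0.75, SE 0.18, edgeR adjusted p = 0.0206) and in the mean of the sexes (0.65, SE 0.13, edgeR adjusted p = 6.6e-04), as the 1 of 9 members called, where 1.09% and 2.97% of all genes were called. The genes whose group means were most like those of Hmox1 over the 22 groups were Cd164l2 (Pearson r 0.89), Rad21l (0.86) and Aqp5 (0.85), as a description of groups that share the scaling of their libraries.

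No effect on a member differed between the sexes past the threshold. The male minus female difference was tested for each of the 9 knockdowns, and edgeR called 0 of 9 members in each, as did DESeq2. At an unadjusted p under 0.05 there was 1, Alad with Setd5 shRNA. The share of all genes called was 0 in 8 knockdowns and 0.0186% with Setd5 shRNA. The intervals allow sizeable differences for some of the genes, such as −1.06 to 0.51 for Hmox1 with Chd8 shRNA.

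Other genes of heme and iron handling were read from 7 lists of 82 genes, all of which were tested. Genes called alike in both sexes with Chd8 or Med13l shRNA were named by that rule, so their being called in both sexes is no separate result. The others named below were picked after their values were seen. Blvrb, a biliverdin reductase, rose with Med13l shRNA by 1.23 for males (SE 0.38, edgeR adjusted p = 0.0329) and 1.46 for females (SE 0.38, edgeR adjusted p = 0.00833). The male Blvrb call was lost in 5 and the female in 2 of 6 fits without 1 library. With Chd8 shRNA Blvrb differed by 0.07 (SE 0.38) and 0.03 (SE 0.38). Blvra, the other biliverdin reductase, differed by 0.63 (SE 0.28) and 0.64 (SE 0.28) with Med13l shRNA without passing.

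Transport of porphyrin, heme and mitochondrial iron was a list of 16 genes. With Chd8 shRNA 5 were lower in males (Abcb10, Flvcr1, Pgrmc1, Slc46a1 and Slc48a1) and 4 in females (the same without Pgrmc1), and none was higher. These comparisons called 9.82% and 9.33% of all genes in either direction, and nothing is read from the counts. The median over the 16 was −0.24 and −0.26, against 0.00 over all genes in both sexes. Abcb10, a transporter of the inner mitochondrial membrane, went from 33.3 ± 2.08 to 12.7 ± 1.60 CPM in males (−1.39, SE 0.18) and from 34.0 ± 2.19 to 13.2 ± 4.11 CPM in females (−1.37, SE 0.18). Slc48a1, a heme transporter of lysosomes and endosomes, differed by −0.57 (SE 0.11) and −0.72 (SE 0.11), and Flvcr1, described as a heme exporter, by −0.74 (SE 0.15) and −0.52 (SE 0.15). The Flvcr1 value no longer passed in 4 of 6 female fits without 1 library. With Med13l shRNA Tmem14c, a porphyrin carrier of mitochondria, rose in females (0.47, SE 0.14, edgeR adjusted p = 0.0202), and the median of the 16 was 0.05 in males and 0.10 in females.

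Iron uptake, storage and sensing was a list of 14 genes. With Med13l shRNA Tfrc, the transferrin receptor that brings iron into cells, rose by 0.95 for males (SE 0.24, edgeR adjusted p = 0.00741) and 1.29 for females (SE 0.24, edgeR adjusted p = 2.3e-04). Ncoa4, which carries ferritin to lysosomes to free its iron, fell by 1.02 (SE 0.12, edgeR adjusted p = 2.2e-08) and 1.06 (SE 0.12, edgeR adjusted p = 1.1e-08). They were the 2 of 14 called in each sex, where 8.06% of all genes were called in males and 10.2% in females. With Chd8 shRNA Tfrc differed by −0.62 (SE 0.24) and −0.37 (SE 0.24). Of 14 genes of iron-sulfur cluster assembly, Iba57 was the 1 that was higher with Chd8 shRNA, by 0.92 (SE 0.15) and 0.79 (SE 0.15). With Med13l shRNA Nfu1 rose in females (0.56, SE 0.18, edgeR adjusted p = 0.0394).

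Heme proteins and heme attachment was a list of 13 genes. Cygb, which encodes the oxygen-binding heme protein cytoglobin, went from 33.5 ± 4.34 to 6.52 ± 1.84 CPM in males and from 35.7 ± 8.04 to 5.59 ± 1.12 CPM in females with Chd8 shRNA (−2.36, SE 0.23, and −2.67, SE 0.24), and Cox10 was also lower in males. With Med13l shRNA Cyc1, cytochrome c1 of the respiratory chain, rose by 0.48 (SE 0.14, edgeR adjusted p = 0.016) and 0.60 (SE 0.14, edgeR adjusted p = 0.00178). Cyb5b, the cytochrome b5 of the outer mitochondrial membrane, fell by 0.78 in both sexes (SE 0.16 each, edgeR adjusted p = 5.4e-04 in males and 4.7e-04 in females). Cyb5r3 also fell in males, and Cycs and Sdhc also rose in females. The Cyc1 call was lost in 2 male fits and 1 female fit of 6 without 1 library. The median of the 13 was 0.35 in each sex with Med13l shRNA, against −0.01 and 0.00 over all genes.

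Among 11 regulators of heme genes, Foxo1, a transcription factor of insulin signalling, was higher with Chd8 shRNA by 0.93 (SE 0.31) and 1.11 (SE 0.31) and fell with Med13l shRNA by 1.11 (SE 0.32, edgeR adjusted p = 0.0187) and 1.24 (SE 0.32, edgeR adjusted p = 0.00708). The Foxo1 values varied between libraries. With Chd8 shRNA Foxo1 did not pass in any of 6 male fits and in 3 of 6 female fits without 1 library, and the Med13l calls were lost in 3 male fits and 1 female fit of 6. Hif1a, the oxygen-sensing factor, rose with Med13l shRNA by 0.48 (SE 0.13, edgeR adjusted p = 0.0139) and 0.42 (SE 0.13, edgeR adjusted p = 0.0291), calls lost in 2 and 3 of 6 such fits. Bach1, a repressor of Hmox1, was also higher with Chd8 shRNA in females.

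Hmox1 is a known target of the oxidative stress factor NRF2, and 10 other NRF2 targets formed the last list. With Chd8 shRNA the same 3 were lower in both sexes, which are Sqstm1 (−1.14, SE 0.13, and −0.96, SE 0.13), Gclm (−0.66, SE 0.17, and −0.53, SE 0.17) and Srxn1 (−0.51, SE 0.16, in each). They encode an autophagy receptor, a subunit of the enzyme that starts glutathione synthesis, and sulfiredoxin. The Chd8 comparisons called 9.82% of all genes in males and 9.33% in females, in either direction. Without 1 library, Srxn1 did not pass in 6 of 6 male and 4 of 6 female fits, and Gclm in 1 and 4. With Ash1l shRNA male Srxn1 fell by 1.47 (SE 0.16, edgeR adjusted p = 1.0e-08) and female Srxn1 fell by 1.13 (SE 0.16, edgeR adjusted p = 9.1e-06), and Gclm fell by 0.81 (SE 0.17, edgeR adjusted p = 0.00339) and 0.79 (SE 0.17, edgeR adjusted p = 0.00734). With Med13l shRNA the median of the 10 was −0.09 and −0.05. In females with Setd5 shRNA Nqo1 (2.39, SE 0.50, edgeR adjusted p = 0.00343) and Gclc (0.53, SE 0.13, edgeR adjusted p = 0.0127) rose, and Txnrd1 fell (−0.73, SE 0.18, edgeR adjusted p = 0.0145).

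Counted over all 82 genes, with Chd8 shRNA 3 were higher and 10 lower in males, against 4 and 8 in females. Med13l shRNA raised 5 and lowered 4 in males, and raised 9 and lowered 3 in females. The background of all genes called is the one given for these comparisons above and, in females with Med13l shRNA, 10.2% in either direction, against 8.06% in males. With the block the counts where it pairs the libraries were 20 for Chd8 in males, 18 for Chd8 in females and 29 for Med13l in females, with 22.1%, 21.1% and 27.9% of all genes called.

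**Figure D4:**
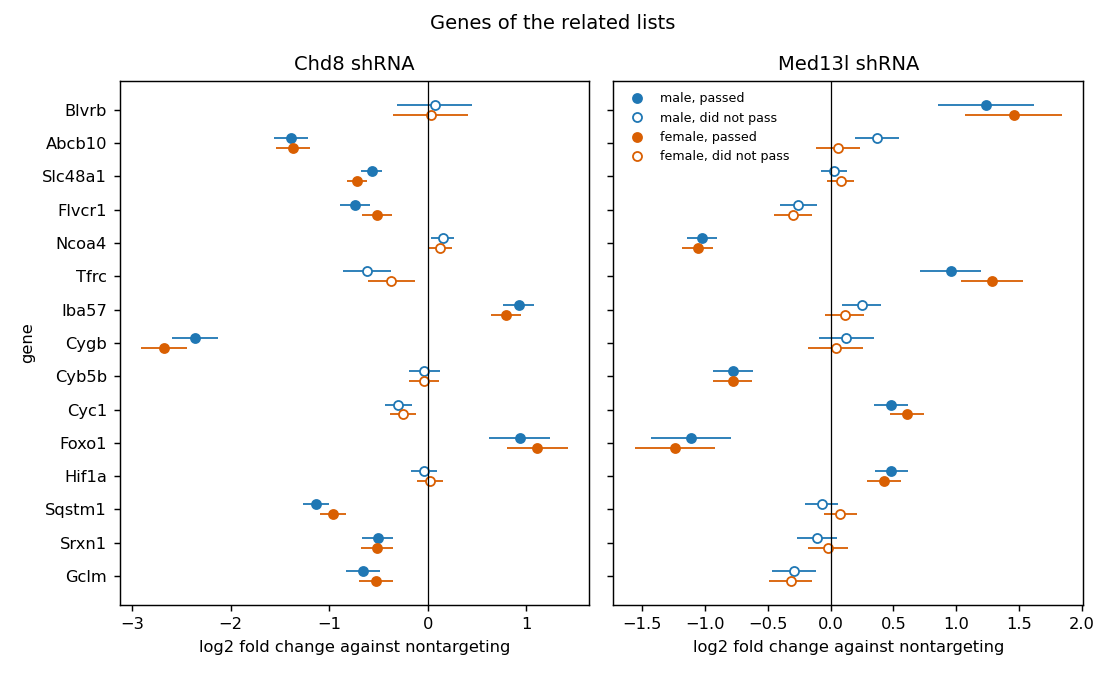
Log2 fold change against the nontargeting shRNA, with its standard error as a bar, for related genes with Chd8 shRNA (left) and Med13l shRNA (right), male in blue and female in orange. Filled points passed edgeR adjusted p under 0.05 and open points did not. For Chd8 shRNA the fill is a description only. Abcb10 and Cygb are low with Chd8 shRNA, and Tfrc and Ncoa4 move in opposite directions with Med13l shRNA.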

How the data were processed

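RNA was measured by sequencing in 66 libraries, 3 for each of 11 conditions and both sexes. The authors deposited a table of whole read counts per gene, and the submitters' processing notes name STAR, featureCounts and mm10 without roles. Columns named Luc were taken as the nontargeting shRNA, the one labelled group without columns of its own name, and 6 columns of no sample were not used. Of 48716 rows, 18483 without a symbol (0.69% to 1.41% of a library's counts) were left out, and 149 rows that repeated a symbol were summed with it, which left 30084 symbols. Odd values made up 26.7% of counts from 1 to 20 and 49.1% of counts from 1000 up, so the fit was repeated with the counts halved.

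The remaining genes were filtered with filterByExpr (minimum count 10), scaled by TMM and fitted with edgeR's quasi-likelihood test (edgeR 4.0.16, limma 3.58.1, R 4.3.3) with 1 mean per group over all libraries (44 residual degrees of freedom). The mean of the sexes is the average of both log2 fold changes. Benjamini-Hochberg adjustment ran over the 16145 genes tested, with a threshold of 0.05, and the test was checked on simulated data. The alternatives were DESeq2 1.42.0, RLE factors, no filter, halved counts, the no virus control, only the libraries compared, the replicate number as a block, and leaving out libraries. Same-numbered libraries were taken as paired where every pair's deviations from the group means correlated above 0.1, which held in 6 of 9 male and 8 of 9 female comparisons. The labels give only a replicate number, so this pairing is inferred from the same data. Levels are CPM, and positions and exon lengths come from GENCODE M21 (GRCm38), promoters from RefSeq.

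The members and lists were chosen with earlier results of these data known. All 9 members are named, and from each list up to 3 genes called alike in both sexes with Chd8 or Med13l shRNA. For Fech and Hmox1, the 3 genes of highest Pearson r over group means of log2 CPM (prior count 2) are named. The values of 1 list gene that met this rule are not reported here, though the list counts include it.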

Additional observations from a re-analysis of the deposited data

How the results depend on the processing

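No reported value that passed the threshold changed sign under an alternative that was run. With the replicate block, which pairs some of these comparisons, the members called were 3 with Ash1l shRNA in males and 4 in the mean of the sexes, 2 and 4 with Chd8 shRNA (males and mean), 1 with Kdm6b (mean), 1 with Kmt2c in females and 1 in the mean, 5 with Med13l in females and 6 each in males and in the mean, and 1, 1 and 3 with Tbr1 (males, females, mean). The sixth with Med13l was Hmox1, lower, at −0.58 in males (edgeR adjusted p = 0.0155) and −0.34 in the mean (0.028). The 1 with Kdm6b was Alad, lower, at −0.47 (edgeR adjusted p = 0.0202). The block called 8.27% of all genes with Ash1l in males and 17.2% in the mean. It called 7.87% with Kdm6b (mean), and 23.8% and 41.5% with Med13l (males and mean). The related genes called with the block were 20 and 18 with Chd8 in males and females, and 21 and 29 with Med13l in males and females. In the Ash1l and Med13l males and in both sexes with Kdm6b shRNA not every same-numbered pair correlated above 0.1. Those libraries were therefore not taken as paired, though in Kdm6b females the pairs had r of 0.50, 0.54 and 0.04. A fit of only the libraries compared gave 0, 3 and 2 members with Ash1l (females, males, mean), 2 with Chd8 males, 1 with Kmt2c (mean), 0 and 7 with Med13l (females, males) and 0 and 0 with Setd5 (females, mean). The related genes were then 1 and 21 with Chd8 and 0 and 27 with Med13l in females and males. Without the filter on low counts the members called were 0 with Ash1l females, 1 and 2 with Med13l females and males, and 1 with Setd5 females. Against no virus they were 3 with Chd8 (mean), 1 with Setd5 females, 1 with Tbr1 females and 2 with Tbr1 (mean). Halved counts and DESeq2 each gave 2 with Ash1l (mean) and 1 with Tbr1 males, and RLE factors gave 2 with Ash1l (mean). Leaving out 1 library gave 0 to 1 members with Ash1l females, 1 to 2 with Ash1l (mean), 1 to 3 with Chd8 (mean), 1 to 3 with Med13l females, 0 to 3 with Med13l males, 0 to 2 with Setd5 females and with Setd5 (mean), and 0 to 1 with Tbr1 in each sex. The related genes were then 6 to 14 with Chd8 females, 8 to 10 with Chd8 males, 4 to 19 with Med13l females and 5 to 7 with Med13l males. Outside the block, the shares of all genes called in these fits are not given, so nothing is read from their counts about the members. The cause of the differences between fits was not tested. With Med13l shRNA the calls within a sex moved more than the mean of the sexes, which kept 5 members in all 12 fits without 1 library.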
